A study of Mus musculus with 45 samples.

Results

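Germinal center (GC) B cells from S1PR4-/- and WT mice were compared across all genes, to see which GC programs differed without S1PR4 and how closely the others were held. The comparison used the 12 GC B cell libraries of the 45 in the series, 6 from WT and 6 from S1PR4-/- mice, chosen by the genotype and population in their labels. The S1PR4-/- mice carried S1pr4tm1Dgen, an allele obtained as strain B6.129P2-S1pr4tm1Dgen/J and crossed to C57/BL6 for at least 10 generations, and the WT mice were S1pr4+/+. The knockout is not restricted to a cell type, so that the B cells, the T cells and the surrounding tissue all lacked the receptor. Male and female mice of 8 to 12 weeks received OVA (50 µg) and LPS (5 µg) in IFA in the hind footpads, and GC B cells were sorted from draining lymph nodes as B220+ GL7+ Fas+ cells on Day 9. Non-GC B cells (B220+ GL7- Fas-, 5 WT and 4 S1PR4-/- libraries) came from the same day, and TFH and non-TFH CD4+ T cells (6 libraries of each genotype) from Day 6.

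S1PR4 is a G protein-coupled receptor for sphingosine-1-phosphate (S1P), a lipid whose gradient between blood, lymph and tissue guides lymphocyte movement. In the GC, B cells divide and mutate their antibody genes in the dark zone under BCL6, then compete in the light zone for antigen and T cell help before they re-enter the cycle or leave as plasma or memory cells. GC B cells are known to turn down the egress receptor S1PR1 and to use S1PR2, which acts through Gα13 to keep them inside the follicle.

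The libraries held 26299429 to 38523000 expected counts in WT and 28341979 to 36187748 in S1PR4-/- mice. S1pr4 itself held 505 to 1205 counts in the WT libraries and 0 to 4 in the S1PR4-/- libraries, as their labels require. Of the 10 GC B cell markers, 10 were tested and 0 were called (0.0612% of all genes tested were). Their summed level overlapped between genotypes (1539 to 2498 CPM, counts scaled to the size of the library, in WT and 1804 to 2696 CPM in S1PR4-/- libraries). Of the 8 neutrophil markers, none passed the low-count filter, and 7 of the 12 T cell markers, Cd3d, Cd3e and Cd3g among them, also failed it. The other 5, Cd4, Trac, Cd28, Lat and Cd5, passed it. All 12 summed to 15.91 to 61.39 CPM in WT and 8.396 to 99.2 CPM in S1PR4-/- libraries. The 8 plasma cell markers, all tested, summed to 3427 to 6862 CPM in WT and 1812 to 15290 CPM in S1PR4-/- libraries. Among the WT libraries, replicate 6 had the highest summed level of the 10 naive B cell markers (3838 CPM, against 1051 to 2359 in the other WT and 1171 to 1897 in the S1PR4-/- libraries). Immunoglobulin genes took 3.71% to 7.37% of the counts in WT and 1.45% to 18% in S1PR4-/- libraries, with the 18% in S1PR4-/- replicate 3. Genotype accounted for 9.94% of the variance among the 12 libraries, where all splits of them into 6 and 6 gave 9.09% on average (exact permutation test over the libraries, one-sided, p = 0.297). Below, values with ± are the mean and SD of the 6 libraries of a genotype unless an SE is named, and intervals are 95% intervals of the log2 fold change of S1PR4-/- over WT cells.

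Of 13070 genes tested, 8 (0.0612%) differed at a false discovery rate (FDR) under 0.05 and a fold change over 1.5 in edgeR's quasi-likelihood test, 2 of them higher (0.0153%) and 6 lower (0.0459%) in S1PR4-/- cells. No further gene had an FDR under 0.05 with a smaller fold. In 25 genes (0.191%) the 2 groups of libraries did not overlap, and 540 (4.13%) had an unadjusted p under 0.05. To say how closely the remaining genes were held, the 95% interval of each log2 fold change was set against a band of 1.5-fold in either direction. For 8773 genes (67.1%) the whole interval lay inside that band, for 10987 (84.1%) it lay inside 2-fold and for 5035 (38.5%) inside a narrower band of 0.32 on the log2 scale. A test of equivalence within 1.5-fold, adjusted over all genes, passed 9070 genes (69.4%). Each bound was tested one-sided at 0.05, looser before adjustment than the 95% interval, so this test is not a stricter check. The width followed the level of expression: the interval lay inside 1.5-fold for 1.7% of 1707 genes under 1 CPM, 40.1% of 2910 genes from 1 to 10 CPM, 88.5% of 6076 genes from 10 to 100 CPM and 92.5% of 2377 genes above. A gene whose interval reached beyond the band was not shown to differ, and was not shown to be alike.

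The 8 genes fell into the locus around S1pr4 and a set of gene copies. S1pr4 (chr10:81497747-81500132, minus strand) is a protein-coding gene that gave from 16.6 to 35.2 CPM in WT libraries, with a median of 23.0, and from 0 to 0.107 CPM in S1PR4-/- libraries, with a median of 0.0145. The 2 groups lay far apart, and the fitted log2 fold change of -9.47 ± 0.689 (SE, n = 6 and 6, edgeR FDR 1.07e-07) rests on a handful of counts in the S1PR4-/- libraries. Gna15 encodes Gα15, a G protein alpha subunit of the Gq family found in blood cells, and lies 2.17 kb from S1pr4 (chr10:81502306-81524225, minus strand). Its level ran from 9.24 to 13.6 CPM in WT, with a median of 10.3, and from 2.37 to 5.60 CPM in S1PR4-/- libraries, with a median of 4.32. No S1PR4-/- library reached the lowest WT library. Gna15 fell by 1.35 on the log2 scale (SE 0.202, n = 6 and 6, edgeR FDR 0.0277), but this call was lost when single libraries were left out. The FDR was 0.0589 to 0.0877 without any one of the 6 WT libraries, and 0.0657, 0.108 and 0.0750 without S1PR4-/- replicates 3, 5 and 6, at log2 values of -1.27 to -1.39 for WT and -1.26 to -1.38 for those S1PR4-/- libraries. Ncln, on the other side of S1pr4 at a distance of 1.35 kb, was at 94.0 ± 10.8 CPM in WT and 78.3 ± 7.12 CPM in S1PR4-/- cells, with an interval for the log2 fold change of -0.45 to -0.08 that stayed within 1.5-fold, and was not called.

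**Figure D1:**
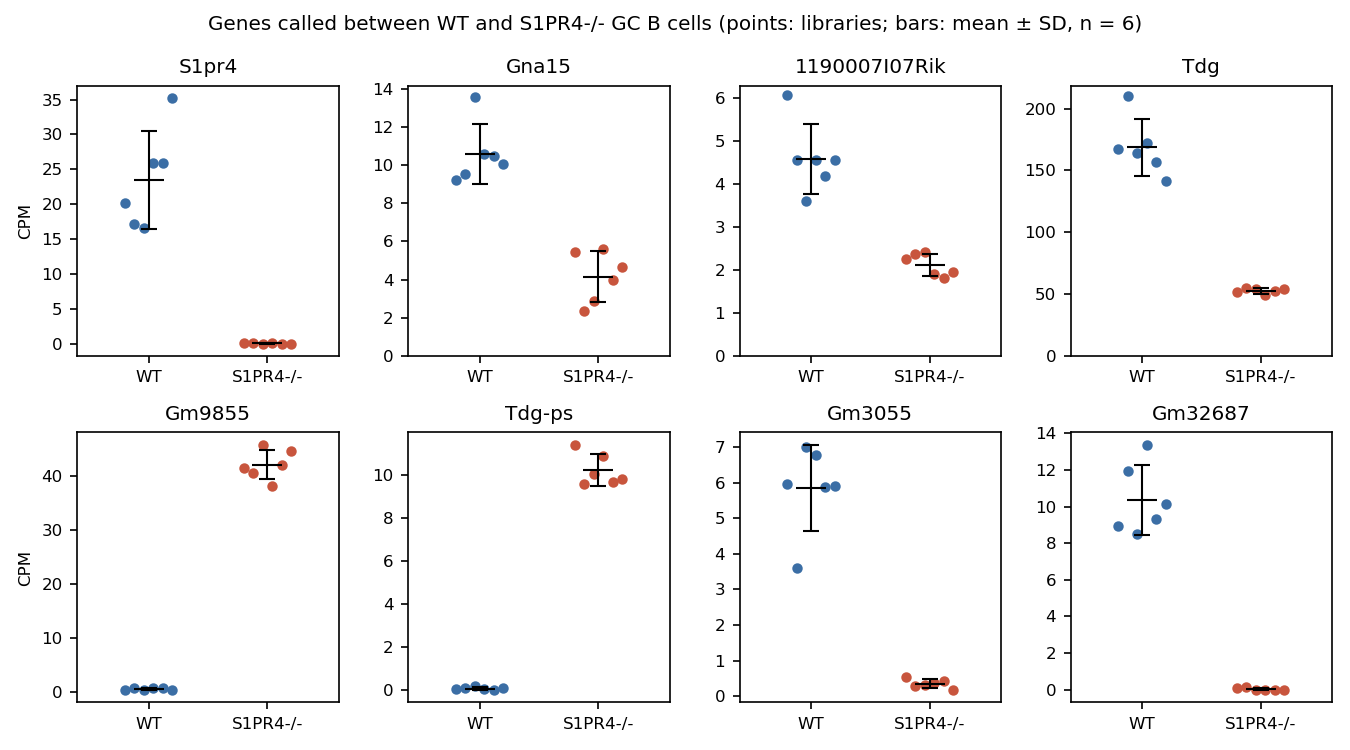
CPM of the 8 called genes in each of the 12 GC B cell libraries, with the mean and SD of each genotype (n = 6) as bars. In every panel the libraries of the 2 genotypes form separate ranges, for example 141 to 210 CPM in WT and 49.0 to 54.8 CPM in S1PR4-/- cells for Tdg.

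Tdg encodes thymine DNA glycosylase, a base excision repair enzyme that removes thymine or uracil paired with guanine and products of 5-methylcytosine oxidation. It lies 1130 kb from S1pr4 (chr10:82629828-82650799, plus strand). Tdg-ps (chr15:82516311-82519278, plus strand) and Gm9855 (chr10:42054113-42055306, minus strand) are processed pseudogenes, intronless copies of its transcript elsewhere in the genome. Over its aligned length the transcript of Tdg-ps matched the coding sequence of Tdg at 98.7% of 1266 bases and that of Gm9855 at 99.2% of 1194 bases. The stretch of 60 coding bases in which the 3 differed at the most positions (bases 1114 to 1173 of the Tdg coding sequence, GENCODE M21 transcripts, mm10) is shown because reads within it could be told apart only at its 5 differing positions, given here in capitals.
Tdg: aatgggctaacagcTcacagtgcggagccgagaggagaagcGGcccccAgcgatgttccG
Tdg-ps: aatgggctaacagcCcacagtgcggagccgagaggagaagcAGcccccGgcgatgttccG
Gm9855: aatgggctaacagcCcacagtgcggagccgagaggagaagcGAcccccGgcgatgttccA

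The counts of these 3 genes moved in opposite directions. Tdg ran from 141 to 210 CPM in WT, with a median of 166, and from 49.0 to 54.8 CPM in S1PR4-/- libraries, with a median of 53.0 (log2 fold change -1.68 ± 0.0819 SE, n = 6 and 6, edgeR FDR 1.07e-07). Gm9855 ran from 0.308 to 0.780 CPM in WT and from 38.1 to 45.8 CPM in S1PR4-/- libraries (log2 fold change 6.33 ± 0.183, edgeR FDR 1.80e-09). Tdg-ps was at 0 to 0.176 CPM in WT and 9.61 to 11.4 CPM in S1PR4-/- libraries (6.96 ± 0.380, edgeR FDR 1.07e-07). Reads in the deposited table are divided among similar transcripts by an estimate, and 48.0% of the 31-base words of the Tdg transcripts also occur in another gene, as do 71.7% of those of Tdg-ps and 90.5% of those of Gm9855, so that the level of any one of the 3 is uncertain. Their sum does not depend on how reads were divided among these 3, but Gm5597 is not part of it. Gm5597 holds 17.3% of the words of Tdg, 27.9% of those of Tdg-ps and 80.7% of those of Gm9855. It was not among the 8 called genes, but was called in the fit of all 8 groups. The sum of the 3 ran from 141.8 to 211 CPM in WT and from 98.07 to 109.6 CPM in S1PR4-/- libraries, still without overlap. This sum fell by 0.69 on the log2 scale (SE 0.0818, edgeR FDR 0.00397), a smaller difference than for Tdg alone. The part of Gm5597 in that fall was not tested.

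Gm3055 and Gm32687, protein-coding gene models without a given name, lie 243 and 364 kb from S1pr4 in a stretch that holds the zinc finger genes Zfp433 and Zfp781. Gm3055 (chr10:81742821-81771161, minus strand) ran from 3.58 to 7.0 CPM in WT and from 0.167 to 0.536 CPM in S1PR4-/- libraries (log2 fold change -4.04 ± 0.248, edgeR FDR 2.17e-06). Of its 31-base words, 93.8% also occur in Zfp781, which went the other way, from 4.40 ± 1.02 CPM in WT to 8.28 ± 1.37 CPM in S1PR4-/- cells without passing the test (log2 fold change 0.91, interval 0.55 to 1.27, edgeR FDR 0.149), and 44.7% occur in BC024063, at 3.93 ± 1.2 and 5.88 ± 1.54 CPM. Summed over these 3 genes, WT libraries held 14.2 ± 2.11 CPM and S1PR4-/- libraries 14.5 ± 2.18 CPM, with a log2 fold change of 0.03 (interval -0.24 to 0.30, edgeR FDR 0.997). The decrease of Gm3055 was thus not seen in the sum of the 3 similar genes.

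Gm32687 (chr10:81863934-81881081, plus strand) ran from 8.53 to 13.4 CPM in WT, while 4 S1PR4-/- libraries were at 0 and the highest held 0.145 CPM (log2 fold change -7.77 ± 0.673, edgeR FDR 4.30e-06, fitted on few counts). Of its 31-base words 96.0% also occur in Zfp433, which was at 14.4 ± 2.17 CPM in WT and 14 ± 2.67 CPM in S1PR4-/- cells, with an interval within 1.5-fold. The sum of Gm32687 and Zfp433 went from 24.8 ± 2.52 to 14 ± 2.69 CPM and fell by 0.82 on the log2 scale (SE 0.131, edgeR FDR 0.0492). 1190007I07Rik, a protein-coding gene beside Tdg (chr10:82619851-82623228, minus strand), ran from 3.62 to 6.08 CPM in WT and from 1.83 to 2.43 CPM in S1PR4-/- libraries, and fell by 1.11 on the log2 scale (SE 0.146, n = 6 and 6, edgeR FDR 0.00766).

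Within 10 Mb of S1pr4, 223 other genes were tested, and 5 of them had an FDR under 0.05, against 2 of the 12793 genes with a unique position elsewhere, both of them the copies of Tdg. An unadjusted p under 0.05 was found for 7.17% of the genes within 10 Mb and for 12.5% of the 72 within 1 Mb, against 4.09% elsewhere. In 7 of the 223 genes the 2 groups of libraries did not overlap: the 5 called genes, Zfp781 and Gm4924. Elsewhere this held for 17 of the 12793 genes, and over all genes for 0.191%. Gm4924, 854 kb from S1pr4, was at 4.36 ± 1.15 CPM in WT and 8.07 ± 0.856 CPM in S1PR4-/- cells (log2 fold change 0.89 with an SE of 0.166, edgeR FDR 0.180). Most genes of the window were held as closely as those elsewhere, with 66.8% of intervals within 1.5-fold inside the window and 67.2% outside. Gna11, a further Gq family subunit 28.6 kb from S1pr4, was among them, at 16.3 ± 0.834 CPM in WT and 14.8 ± 1.68 CPM in S1PR4-/- cells. The allele came from another strain and was crossed to C57/BL6, so that the lost receptor and other sequence linked to the allele cannot be told apart for genes in this window.

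**Figure D2:**
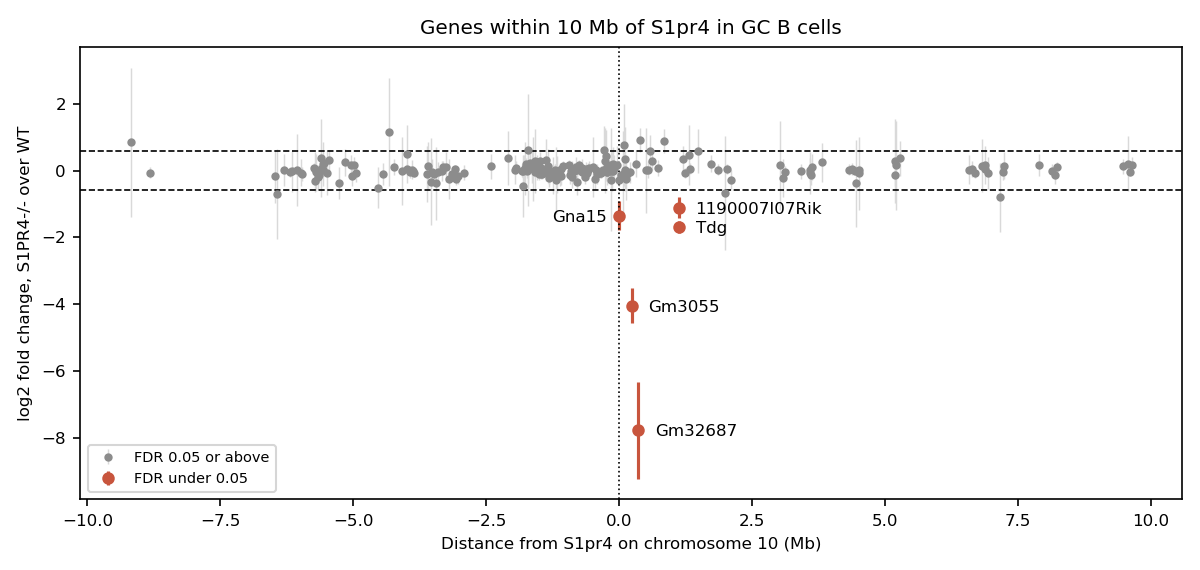
Log2 fold change (S1PR4-/- over WT) with its 95% interval for the 223 genes tested within 10 Mb of S1pr4, by distance from it in Mb along chromosome 10. The 5 genes with an FDR under 0.05 lie between 2.17 kb and 1130 kb from S1pr4 on one side of it, and dashed lines mark 1.5-fold.

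The 8 genes were also followed in the other populations, each fitted on its own. S1pr4, Tdg, Tdg-ps, Gm9855, Gm3055 and Gm32687 were called in non-GC B cells, TFH cells and non-TFH cells as well, where 7 of 13038 (0.0537%), 67 of 13495 (0.496%) and 15 of 13197 (0.114%) genes were called. In non-GC B cells Gna15 was at 26.1 ± 4.46 CPM (5 libraries) in WT and 1.5 ± 0.962 CPM (4 libraries) in S1PR4-/- cells, a log2 fold change of -4.10 (edgeR FDR 0.0140). In TFH cells its log2 fold change was -1.68 (edgeR FDR 0.00335) and in non-TFH cells -0.83 (edgeR FDR 0.342). The difference of 2.77 in log2 fold change between GC and non-GC B cells did not pass the test of the interaction in edgeR (interval 1.62 to 3.92, edgeR FDR 0.393). 1190007I07Rik, by contrast, had log2 fold changes of -1.27 in non-GC B cells, -0.53 in TFH cells and -0.90 in non-TFH cells, and was called in the last (edgeR FDR 0.645, 0.0695 and 0.0203). No gene passed the interaction test of GC against non-GC B cells among 14490 tested in edgeR, where 664 (4.58%) had an unadjusted p under 0.05. DESeq2 passed 6, and Gna15 was 1 of them, with a smaller fall in GC than in non-GC B cells (difference 2.78, DESeq2 FDR 0.000408), so that the call for Gna15 depends on the tool. Against TFH cells 5 of 14691 genes (0.034%) passed in edgeR, none of them among the 8, and 1247 (8.49%) had an unadjusted p under 0.05. With DESeq2 the fall of S1pr4, fitted on few counts, also passed against TFH cells (difference -2.85, DESeq2 FDR 0.00603; edgeR -2.72, FDR 0.110).

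The programs of the GC B cell were described with 23 gene lists that hold 657 tested genes. Of these, 1 was called (Tdg, against 0.0612% of all genes) and 51 had an unadjusted p under 0.05 (4.13% of all genes did). Ribosomal protein genes made up 28 of those 51. With 0.0612% of all genes called, 0 calls in a single list is no result about its members. The interval lay inside 1.5-fold for 545, or 83.0% (67.1% of all genes), and inside the narrower band for 303, or 46.1% (38.5% of all genes). These shares were not matched for level. Over all genes the interval lay inside 1.5-fold for 88.5% from 10 to 100 CPM and 92.5% above. The 83.0% thus does not show that the lists were held more closely than other genes of like level. The median log2 fold change was -0.01 over the lists and 0.01 over all genes, and the median half-width of the interval was 0.23 on the log2 scale (0.287 over all genes). The lists separated by how closely they were held. Metabolic, translation, repair and receptor signalling genes had narrow intervals, while the plasma cell, interferon and immunoglobulin genes had wide ones. The mitotic (0.379), G1 (0.315), GC surface (0.31) and light zone (0.304) lists lay between, with median half-widths above that of all genes.

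**Figure D3:**
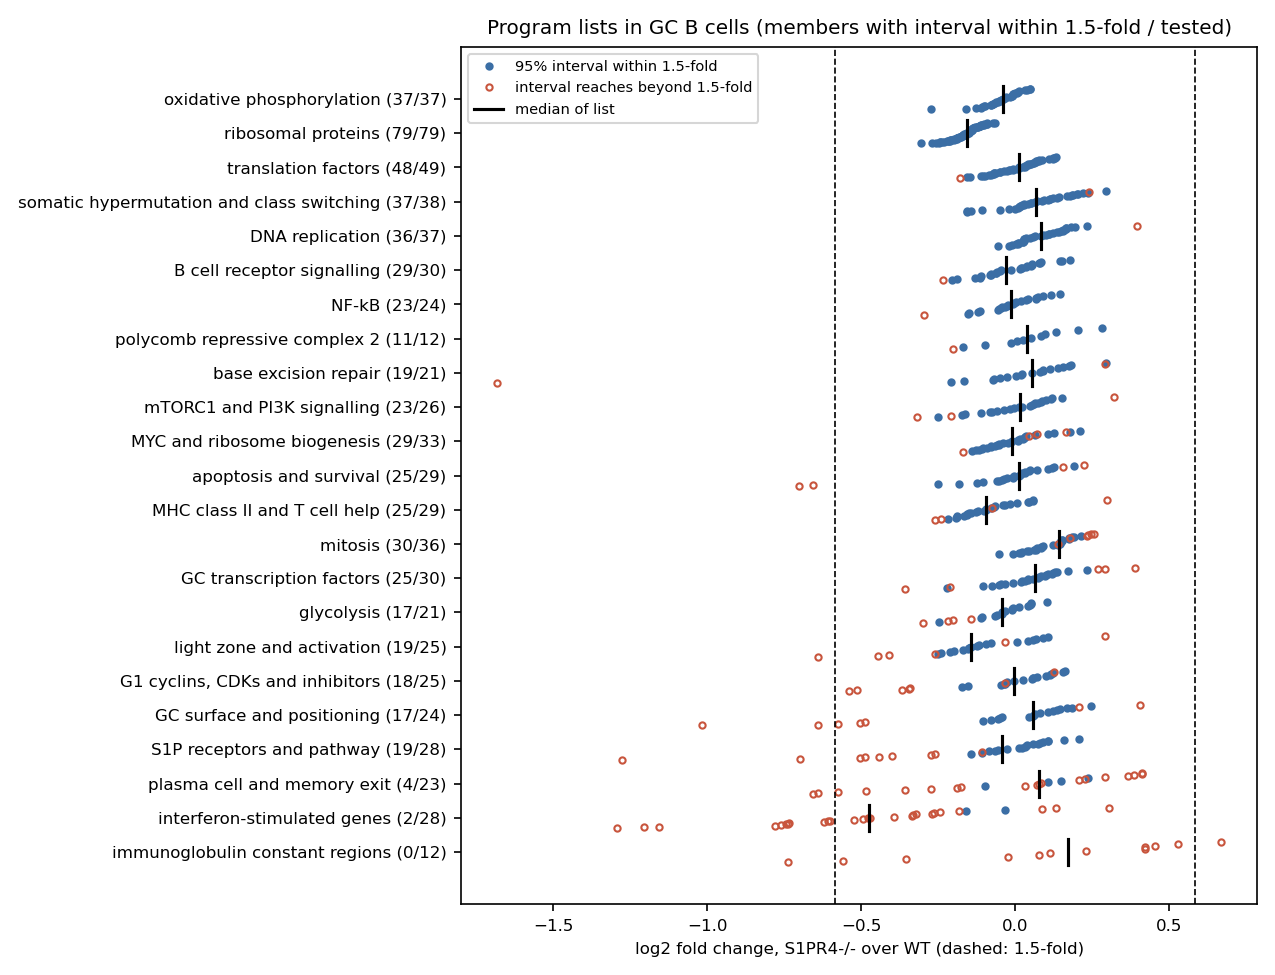
Log2 fold change (S1PR4-/- over WT) of every tested member of the 23 program lists, with filled points where the 95% interval lay within 1.5-fold and open points where it reached beyond. The black bar is the median of the list, the numbers beside each name give the filled points over the members tested, and the only point of a called gene is Tdg at -1.68.

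Of the 30 transcription factors of the GC B cell, 0 were called and 25 had an interval within 1.5-fold. Bcl6, the repressor that defines the GC fate, ran from 119 to 251 CPM in WT, with a median of 180, and from 186 to 284 CPM in S1PR4-/- libraries, with a median of 216. The groups overlapped, and its log2 fold change of 0.27 had an interval of -0.11 to 0.65, which reached just past 1.5-fold on the higher side. Pax5, the B cell identity factor (0.08, interval -0.15 to 0.31), Pou2af1, the octamer coactivator needed for GCs (0.13, -0.08 to 0.33), Foxo1, a dark zone factor (0.04, -0.13 to 0.21), and Mef2b, an activator of Bcl6 (0.17, -0.14 to 0.48), stayed within the band. The other 4 members outside it were Irf4, Id2, Hhex and Bcor. Bcor, a partner of BCL6 in repression, had the highest value of the list, 0.39 (0.13 to 0.65), at 54.3 ± 6.23 CPM in WT and 71.1 ± 13.7 CPM in S1PR4-/- cells, and did not pass the test (edgeR FDR 0.985).

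The genes of antibody diversification showed no call, where 0.0612% of all genes were called. Of 38 genes of somatic hypermutation and class switching, 0 were called and 37 had an interval within 1.5-fold. Ung, the uracil glycosylase of antibody diversification, was at 7.24 ± 1.02 CPM in WT and 8.90 ± 1.34 CPM in S1PR4-/- cells (0.30, lower bound just above 0 and upper bound 0.58). The mismatch repair gene Msh6 (0.20, -0.04 to 0.45) stayed within the band, and Polh, an error-prone polymerase, was the single gene outside it (0.24, -0.12 to 0.60). In base excision repair Tdg was the 1 gene called of 21, and apart from Neil1 (0.29, -0.03 to 0.61) the other members were within 1.5-fold, Mbd4, the other glycosylase for thymine paired with guanine, among them (0.09, -0.15 to 0.33).

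Genes of position and signalling also showed no call (0.0612% of all genes were called). Among 24 genes of the GC surface and positioning, 17 (70.8%) had an interval within 1.5-fold, near the 67.1% of all genes. Fas, a marker of the sort (0.05, -0.20 to 0.30), S1pr2 (0.11, -0.18 to 0.40), Gna13, the subunit through which it acts (0.08, -0.14 to 0.30), Cxcr4, which draws cells to the dark zone (0.06, -0.18 to 0.31), and Cxcr5, the follicle homing receptor (-0.05, -0.37 to 0.28), were among the 17. Ccr7, Gpr183, Ccr6 and Cd38, receptors and surface proteins carried by naive or memory B cells, were among the 7 outside the band, as were Rgs1 and Itga4. Ccr7 had the lowest value and the widest interval of the list, from 30.9 to 205 CPM in WT with a median of 74.8 and from 22.4 to 64.0 CPM in S1PR4-/- libraries with a median of 46.0, and its highest value was that of WT replicate 6. The 10 naive B cell markers, which share Ccr7, Gpr183 and Cd38 among others with this list, all had a log2 fold change below 0 (48.3% of all genes did), with a median of -0.46, 0 called and 2 within the band, while the 10 GC B cell markers all had one above 0, with a median of 0.17 and 9 within the band. Without WT replicate 6 the naive median was -0.13, 8 of the 10 markers were below 0 and 4 were within the band. The GC B cell median was 0.11 without that library, and likewise without S1PR4-/- replicate 4 or without S1PR4-/- replicate 6. Fewer naive cells in the sort and less of these transcripts per cell cannot be told apart in bulk libraries, and the part of the sort in any result here was not tested.

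The S1P receptors and their pathway were examined as 28 tested genes other than S1pr4, of which 0 were called (0.0612% of all genes were). The interval lay within 1.5-fold for 19 of them, or 67.9%, near the 67.1% of all genes. S1pr2 ran from 322 to 549 CPM in WT, with a median of 469, and from 363 to 552 CPM in S1PR4-/- libraries, with a median of 504. S1pr3 was at 70.8 ± 9.55 CPM in WT and 65.7 ± 8.96 CPM in S1PR4-/- cells (-0.11, -0.34 to 0.12). S1pr1 was at 76.5 ± 42.4 and 56.3 ± 19.0 CPM, with an interval of -1.13 to 0.25 that allows a decrease past 2-fold. S1pr5 was near the detection limit in both, at 0.715 ± 0.441 and 0.541 ± 0.361 CPM. The S1P lyase Sgpl1 (0.04, -0.14 to 0.21), the kinase Sphk2 (0.07, -0.05 to 0.20) and the exchange factor Arhgef1 (0.06, -0.12 to 0.24), which relays Gα13, were all held closely. The lowest member was Plpp3, a lipid phosphate phosphatase, from 1.35 to 4.65 CPM in WT and from 0.322 to 1.36 CPM in S1PR4-/- libraries (-1.28, -2.08 to -0.48), which did not pass the test (edgeR FDR 0.985).

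B cell receptor signalling had 29 of 30 genes within the band and 0 called, with Cd79b (-0.05, -0.29 to 0.20), Syk (0.15, -0.08 to 0.38) and Btk (0.05, -0.11 to 0.21) as examples. Of 29 genes of MHC class II and T cell help, 25 were within the band, including the class II transactivator Ciita (0.04, -0.16 to 0.25), the costimulator Icosl (-0.04, -0.33 to 0.26) and the receptor for the TFH cytokine IL-21, Il21r (0.01, -0.22 to 0.24). Light zone and activation genes were within it for 19 of 25, with Cd83 at -0.15 (-0.43 to 0.13), Cd86 at 0.04 (-0.28 to 0.37) and Myc at -0.12 (-0.42 to 0.19). NF-kB genes were within it for 23 of 24 and apoptosis and survival genes for 25 of 29, where Bcl2 (-0.66, -1.27 to -0.04), a survival factor low in GC B cells, lay outside. No gene of these 5 lists was called (0.0612% of all genes were). The narrower band held 27.6% of the MHC class II and T cell help genes and 16.0% of the light zone genes (38.5% of all genes). It held 63.3% of the B cell receptor, 66.7% of the NF-kB and 55.2% of the survival genes. The log2 fold change was below 0 for 23 of the 29 MHC class II and T cell help genes (median -0.09). It was below 0 for 18 of the 25 light zone genes (median -0.14), against 48.3% of all genes.

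**Figure D4:**
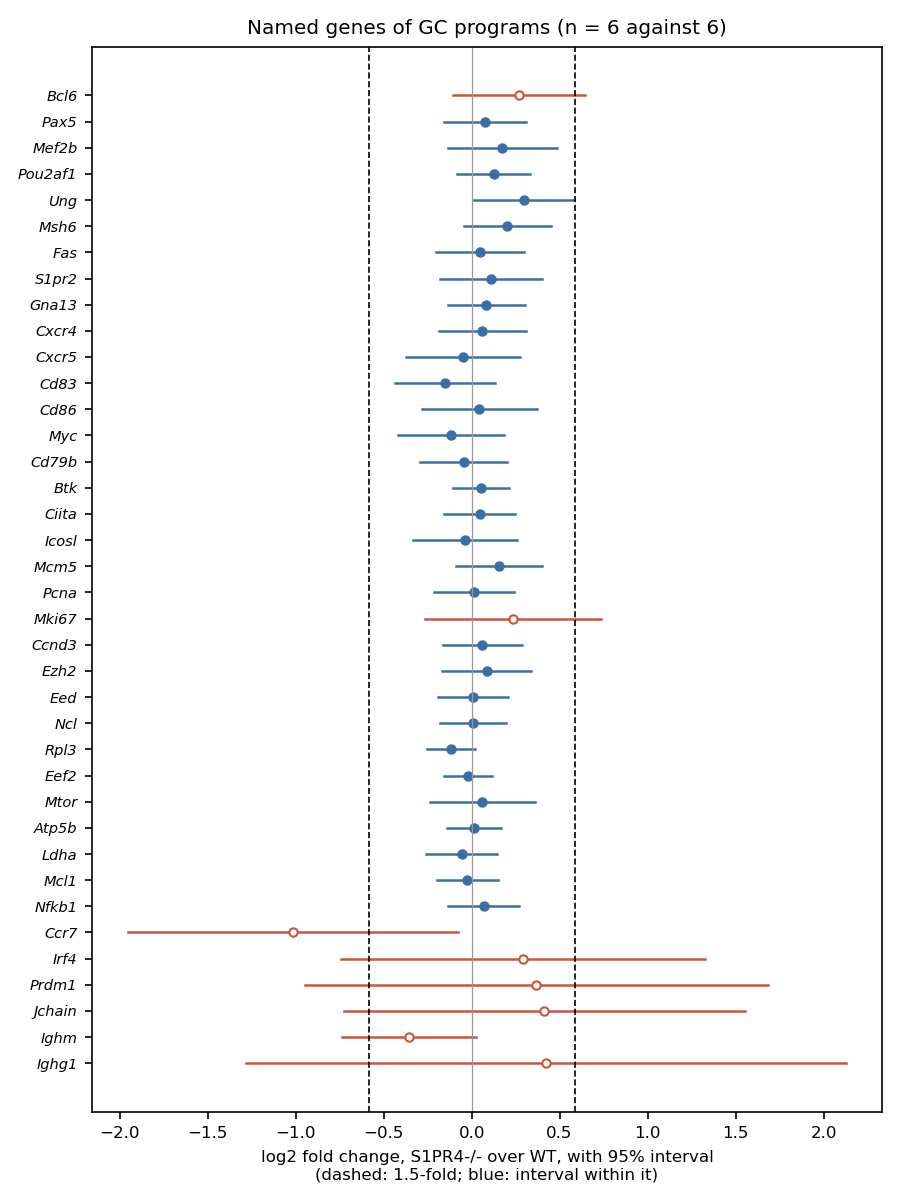
Log2 fold change (S1PR4-/- over WT, n = 6 and 6) with its 95% interval for 38 named genes of the GC programs; blue intervals lie within 1.5-fold (dashed lines) and red ones reach beyond it. Genes such as Btk (-0.11 to 0.21) and Eef2 (-0.16 to 0.12) have narrow intervals, and Ighg1 (-1.28 to 2.13) has the widest one shown.

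No gene of proliferation was called (0.0612% of all genes were). Of 37 DNA replication genes 36 were within 1.5-fold, with Pcna, the sliding clamp, at 0.01 (-0.21 to 0.24) and the helicase subunits Mcm2 at 0.16 (-0.08 to 0.39) and Mcm5 at 0.16 (-0.09 to 0.40). Of 36 mitotic genes 30 were within it, and the 6 others, Mki67, Top2a, Cenpe, Cenpf, Kif11 and Foxm1, had upper bounds past 1.5-fold. The narrower band held 37.8% of the replication genes and 5.56% of the mitotic genes, against 38.5% of all genes. Mki67 ran from 178 to 547 CPM in WT, with a median of 294, and from 298 to 501 CPM in S1PR4-/- libraries, with a median of 382. The log2 fold change was above 0 for 34 of the 37 replication genes (median 0.08) and 34 of the 36 mitotic genes (median 0.14), and the medians were -0.03 and -0.01 once the level of the naive B cell markers was a covariate. The mean log2(CPM + 0.5) of the mitotic list was lowest, at 6.64, in WT replicate 6, the library with the highest naive marker level, and the medians moved in both directions with single libraries. Without WT replicate 6 they were 0.03 for replication and 0.04 for mitosis, without WT replicate 2 they were 0.15 and 0.23, and without WT replicate 3 they were 0.11 and 0.20. Without WT replicate 2, 17 of the 36 mitotic genes remained within the band. Of 12 genes of polycomb repressive complex 2, the silencing complex of the proliferating GC B cell, 11 were within it, including Ezh2 (0.09, -0.17 to 0.34) and Eed (0.01, -0.19 to 0.21). Of 25 G1 cyclins, CDKs and inhibitors 18 were, including Ccnd3 (0.06, -0.17 to 0.28). That was 72.0% of the G1 list, near the 67.1% of all genes.

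Ribosomal protein genes were closely held and shared one sign. All 79 had an interval within 1.5-fold and 34 within the narrower band, 0 were called, all 79 had a log2 fold change below 0 (48.3% of all genes did) and 28 had an unadjusted p under 0.05 (4.13% of all genes did). The values ran from -0.30 for Rpl36 to -0.07 for Rpl4, with a median of -0.16, which stayed between -0.20 and -0.13 over the scalings, filters, tests, covariates and left-out libraries tried. Rpl36 ran from 58.5 to 76.2 CPM in WT, with a median of 72.3, and from 47.7 to 67.7 CPM in S1PR4-/- libraries, with a median of 57.9, and the groups overlapped (interval -0.52 to -0.09, edgeR FDR 0.985). The acidic stalk genes Rplp1 (-0.21, -0.42 to -0.00) and Rplp2 (-0.23, -0.44 to -0.02) and the kinase target Rps6 (-0.14, -0.29 to 0.01) were similar in size. These genes are measured in the same libraries and vary together, so 79 signs are not 79 observations: the mean log2(CPM + 0.5) of the list was 7.43 ± 0.0773 in WT and 7.27 ± 0.136 in S1PR4-/- libraries, and the genotypes overlapped through 1 library each, with WT replicate 4 at 7.28 and S1PR4-/- replicate 4 at 7.47. The other 5 WT libraries were at 7.43 to 7.50 and the other 5 S1PR4-/- libraries at 7.08 to 7.33. The study singled out ribosomal proteins in these same libraries, so the list is not independent evidence of its direction.

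Translation factors did not share that sign, with 28 of 49 above 0, a median of 0.01 and 48 intervals within 1.5-fold (43 within the narrower band). Eif1, which sets the start codon, was at 481.2 ± 41.4 CPM in WT and 446 ± 17.5 CPM in S1PR4-/- cells (-0.11, -0.25 to 0.03), and the cap-binding factor Eif4e (-0.06, -0.24 to 0.11) and the elongation factor Eef2 (-0.02, -0.16 to 0.12) were held as closely. Of 33 genes of MYC and ribosome biogenesis 29 were within 1.5-fold, including the nucleolar proteins Ncl (0.01, -0.18 to 0.20) and Fbl (-0.02, -0.18 to 0.13). The regulators Larp1, which binds the mRNAs of ribosomal proteins (0.07, -0.09 to 0.22), Rictor, a subunit of mTORC2 (-0.11, -0.30 to 0.07), and Stat3, a cytokine-activated factor (0.04, -0.14 to 0.22), were within it too, while Map3k12 was at 5.08 ± 0.941 and 6.46 ± 0.703 CPM (0.35, 0.05 to 0.65) and Mlxipl did not pass the low-count filter. For these regulators the study predicted activity by pathway software, and a transcript level does not measure activity. Of 26 genes of mTORC1 and PI3K signalling 23 were within the band. All 37 oxidative phosphorylation genes were within 1.5-fold and 33 of them within the narrower band (Atp5b 0.01, -0.14 to 0.17), and of 21 glycolysis genes 17 were within 1.5-fold (Ldha -0.06, -0.26 to 0.14).

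**Figure D5:**
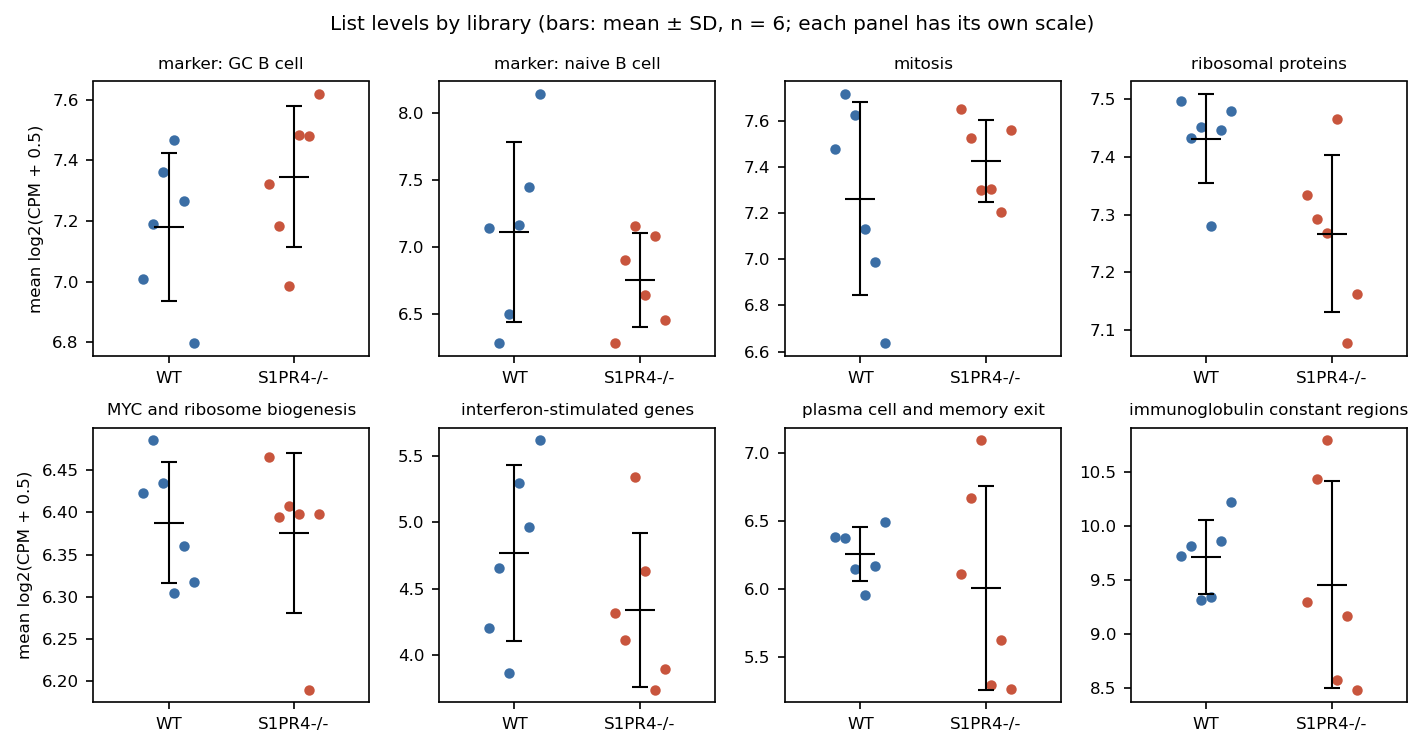
Mean log2(CPM + 0.5) of 8 gene lists in each GC B cell library, with the mean and SD of each genotype (n = 6); each panel has its own scale. The genotypes overlap in every panel, the S1PR4-/- libraries are spread widely in the plasma cell and immunoglobulin panels, and ribosomal proteins lie at 7.43 ± 0.0773 in WT and 7.27 ± 0.136 in S1PR4-/- libraries.

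The 3 lists with the widest intervals varied among mice of one genotype. Of 23 genes of plasma cell and memory exit, 4 were within 1.5-fold and 0 were called, with a median half-width of 0.743. Their summed level ran from 5007 to 9846 CPM in WT, with a median of 6041, and from 3011 to 19250 CPM in S1PR4-/- libraries, with a median of 5066. Prdm1, the regulator of plasma cell fate, ran from 15.9 to 52.6 CPM in WT and from 7.87 to 101 CPM in S1PR4-/- libraries (0.37, -0.95 to 1.68). Irf4, which is needed for the same step, ran from 41.8 to 121 CPM and from 28.1 to 213 CPM. Jchain, the joining chain of secreted IgM and IgA, ran from 2420 to 4800 CPM and from 1143 to 11786 CPM (0.41, -0.73 to 1.55). The S1PR4-/- libraries fell into a higher and a lower set, with 6587, 9549 and 19250 CPM for the summed list in replicates 1, 2 and 3 and 3014, 3544 and 3011 CPM in replicates 4, 5 and 6. These lower libraries also held the least immunoglobulin, 1.45% to 2.26% of counts, and lay at -34.3 to -38.8 on the first principal component, where the other 9 libraries lay at -12.8 or above. The WT libraries of the same numbers had 6093 to 9846 CPM and 5007 to 5990 CPM, and the labels name no batch that would separate them. In each genotype 3 of the 6 libraries had more than 100 counts of Xist and 3 had more than 100 of Ddx3y. Xist was among the genes at the upper end of the first principal component, and Eif2s3y, Ddx3y, Uty and Kdm5d were at its lower end. The part of sex in the 2 sets was not tested. The sign of the list median turned with the setting. It was 0.08, but -0.32 without S1PR4-/- replicate 3, -0.03 without S1PR4-/- replicate 2, -0.04 without WT replicate 4, -0.21 with limma voom, -0.10 with the Xist level as a covariate and -0.02 with library totals, and 0.21 without WT replicate 2. Without WT replicate 6, 8 of the 23 genes were within the band, and without WT replicate 3, 2 were.

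All 12 immunoglobulin constant region genes lay outside the band and 0 were called, with a median half-width of 1.26. Ighg1, the IgG1 heavy chain, ran from 7336 to 34197 CPM in WT, with a median of 8637, and from 2239 to 73592 CPM in S1PR4-/- libraries, with a median of 8583. Taken as shares of all heavy chain constant counts, IgG1 made up 24.5% to 72.6% in WT and 22.1% to 68.3% in S1PR4-/- libraries, IgG2b 15.2% to 43.0% and 13.4% to 44.6%, IgG2c 3.55% to 19.4% and 3.08% to 21.2%, and IgM 6.80% to 17.7% and 3.17% to 26.6%. For each of these isotypes the S1PR4-/- range overlapped most of the WT range. Ighm had the narrowest interval of the list (-0.36, -0.74 to 0.03).

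Of 28 interferon-stimulated genes, 2 were within 1.5-fold, 0 were called, and 3 had an unadjusted p under 0.05 (4.13% of all genes did). Of these genes 25 had a log2 fold change below 0 (48.3% of all genes did), with a median of -0.47 that went to -0.15 with the naive B cell markers as a covariate, to -0.23 without WT replicate 6 (4 genes then within the band) and to -0.68 without S1PR4-/- replicate 3 (1 gene). The sensor gene Oas2 had the lowest value, from 2.06 to 15.3 CPM in WT and from 1.34 to 5.14 CPM in S1PR4-/- libraries (-1.29, -2.37 to -0.22). The summed level of the list was highest in WT replicate 6, at 2570 CPM, and next in S1PR4-/- replicate 3, at 2422 CPM. Of the macrophage markers, 8 of 9 tested also had a value below 0, with a summed level of 444 to 732.2 CPM in WT and 457.1 to 746.4 CPM in S1PR4-/- libraries that was mostly Apoe (502.6 ± 101 and 540 ± 87.6 CPM), while Csf1r was at 5.70 ± 3.97 and 3.68 ± 3.07 CPM. The part of other cells in the interferon values was not tested.

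Among the genes with the next lowest p, Gm29609 was at 0.774 ± 0.487 CPM in WT and 2.99 ± 1.07 CPM in S1PR4-/- cells (1.94, 1.09 to 2.80, edgeR FDR 0.397), and Nacad at 1.04 ± 0.320 and 2.08 ± 0.386 CPM (1.00, 0.52 to 1.48, edgeR FDR 0.639). Igkv14-100, an antibody light chain variable gene, ran from 2.98 to 173 CPM in WT, with a median of 37.8, and from 0.834 to 12.0 CPM in S1PR4-/- libraries, with a median of 1.91. Its values overlapped and spread over a wide range in WT (edgeR FDR 0.985).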

How the data were processed

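RNA of sorted cells was captured with oligo-dT beads, and stranded paired-end libraries were sequenced. Reads trimmed by cutadapt 2.10 were mapped to mm10 by STAR 2.5.3 and duplicates marked by Picard, and the authors deposited RSEM 1.3.0 expected counts (estimated counts, 8.83% of values not whole) in 1 table of 55450 genes. The study's methods name Gencode M30, but 55423 of the symbols are in GENCODE M21, from which positions and sequences were taken. Expected counts were rounded, filtered with filterByExpr, scaled by TMM and tested in the 12 GC B cell libraries with edgeR 4.0.16 (quasi-likelihood, Benjamini-Hochberg, R 4.3.3), where a call needed an FDR under 0.05 and a fold over 1.5. Intervals (95%) are Wald intervals from the same fit, and the fit was tested on simulated data. CPM are counts over the TMM-scaled library size. Depth is given with the data, and intervals cover the spread between mice, taken as 1 library each. Replicate numbers did not pair the libraries (correlations of same-numbered libraries from -0.156 to 0.132).

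Genes and lists were chosen with earlier results of these data known. Named were genes called or with an FDR under 0.05, the 5 with the next lowest p, anchor genes, extremes and widest intervals of each list, the 5 nearest S1pr4 on each side, and Eif1, Larp1, Rictor, Map3k12, Mlxipl, Myc and Stat3; further list members named in the text were chosen after their values were seen. Alternatives were other scalings and filters, DESeq2 1.42.0, limma voom 3.58.1, the replicate number as a block, all 8 groups in 1 fit, Xist or naive B cell markers as a covariate and each library left out. Library sizes without immunoglobulin genes and summed counts of similar genes were added after the data were seen. List means use log2(CPM + 0.5), and shared sequence was counted in 31-base words. Some list members are not reported here by name.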

Additional observations from a re-analysis of the deposited data

Results flagged for a closer look

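Single libraries stood apart in 4 of the 59 groups of 6 values examined, and chance flags about 1 in 20 groups. WT replicate 2 was lowest for Gm3055, at 3.58 CPM. WT replicate 3 was highest for Gna15, at 13.6 CPM, and without it the edgeR FDR of Gna15 was 0.0877. S1PR4-/- replicate 5 was lowest for the MYC and ribosome biogenesis genes, with a mean log2(CPM + 0.5) of 6.19. WT replicate 4 was lowest for the ribosomal proteins, at 7.28.

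The effect of the genotype differed between GC B and TFH cells for 5 of 14691 genes (0.034%, edgeR interaction FDR under 0.05). The difference, GC B minus TFH, was 3.36 on the log2 scale for Eaf2, 1.84 for Prr5, 9.17 for Ighv2-2, 4.35 for Nuggc and 3.35 for 4933404K13Rik. Eaf2, a transcription elongation factor of GC B cells, was at 0.29 (log2, S1PR4-/- over WT) in GC B cells and at -3.07 in TFH cells, and Prr5, a subunit of mTORC2, at 0.09 and -1.75. The last 3 genes did not pass the low-count filter in TFH cells. The summed level of 9 B cell genes chosen afterwards (Cd79a, Cd79b, Ms4a1, Pax5, Ebf1, Blk, Cr2, Fcrla and Spib) ran from 17.1 to 208 CPM in WT TFH libraries, with a median of 97.4, and from 6.68 to 88.7 CPM in S1PR4-/- TFH libraries, with a median of 11.0, and its part in these differences was not tested. In GC B libraries the same sum ran from 5294 to 7781 CPM in WT and from 5347 to 7373 CPM in S1PR4-/- cells.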

How the results depend on the processing

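The count of called genes stayed between 6 and 14. DESeq2 called 14, adding Gm29609, Gm4924, Ighv14-1, Igkv14-100, Nacad and Zfp781, also by FDR alone. The fit of all 8 groups called 11, of which 7 were shared, and added Gm5597, Igkv14-100, Igkv14-126 and Tyro3. Leaving out single libraries gave 7 to 8 calls, 8310 to 8853 genes within 1.5-fold and 4 to 5 calls near S1pr4. The replicate block left 6 calls, with 1190007I07Rik (FDR 0.203) and Gna15 (FDR 0.275) lost, 3 calls near S1pr4 and 3 interactions with TFH cells. The numbers were treated as names, since 1 of 6 WT libraries correlated best with its own number. That check does not cover a split of replicates 1 to 3 from 4 to 6. In both genotypes, summed macrophage markers were at 444 to 559.5 CPM in replicates 1 to 3 and 629.6 to 746.4 CPM in 4 to 6. No fit included such a split, and its part in the results was not tested. Gna15 was also lost with library totals (FDR 0.0804) and with all 8 groups (FDR 0.180). The narrower band of 0.32 (log2) held 5035 genes. The DESeq2 interaction passed 6 genes against non-GC B cells and 130 against TFH cells. Gm3055 reversed to 0.0323 when summed with Zfp781 and BC024063, since similar genes are then counted together. The median over all genes moved between -0.02 and 0.01. With all 8 groups in 1 fit, 10 of the mitotic, 18 of the B cell receptor and 10 of the GC surface genes were within 1.5-fold. Without the low-count filter 37.0% of 23664 genes were within 1.5-fold, as more genes at low counts were then tested. The replicate block turned the plasma cell median to -0.19. Intervals were widest for genes under 1 CPM and for the plasma cell, interferon and immunoglobulin genes, whose values spread widely between mice. With the naive B cell markers as a covariate, 12 of the 23 plasma cell genes were within 1.5-fold. The 2 lists share Klf2 and Cd38, so that count is not independent of the covariate.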
